A study of Oryza sativa with 12 samples.

Results

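Of 23399 LOC_Os identifiers listed for both rice cultivars, 55 were silent in Nip and expressed in 93-11. LOC_Os identifiers are the locus names of the rice annotation, in which the digits before the g give the chromosome and the digits after it rise along the chromosome. Members were chosen by measured FPKM. A gene was counted as silent in Nip when its mean FPKM over 3 libraries was below 0.5 in Nip normal and also in Nip HS. It was counted as expressed in 93-11 when that mean was at least 5 in 93-11 normal and also in 93-11 HS. FPKM, the deposited unit, scales the fragments assigned to a gene by gene length and by the fragments mapped in the library. Since these means chose the 55 genes (called members from here on), their difference between the cultivars is a description and was not tested.

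Nip (Nipponbare) is a japonica cultivar and 93-11 is an indica cultivar, and both serve as reference genomes of cultivated rice. Japonica and indica rice are known to differ in which genes their genomes carry, in promoter sequence and transposon insertions, and in tandem duplicates, so that a gene transcribed in one subspecies can be missing, truncated or untranscribed in the other. Heat stress in plants is known for the induction of chaperones and of genes for protein repair, together with a decline of many genes for growth and photosynthesis.

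Seedlings aged 3 weeks gave shoots (aerial parts) for RNA-seq in 4 groups of 3 biological replicates, Nip normal, Nip HS, 93-11 normal and 93-11 HS. Both cultivars grew under light of 800 μmol m-2 s-1, and the HS seedlings then spent 36 h at 45 °C, in dimmer light (60 to 80 in that unit) and a humidity above 80%. No transgene or mutation is named for either cultivar. Heat and light therefore changed together, and the humidity of the normal groups is not given in the sources used here, so that their parts in any difference between HS and normal cannot be told apart. The authors aligned the reads of each cultivar to its own genome, and how the LOC_Os names were carried between the genomes is not given in the sources used here.

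The reference table used here matched 0 of the LOC_Os identifiers, so the members are given by identifier, with no gene name, role or sequence, and neither functional classes nor the tissue label could be checked. The files hold no read counts, and the RNA-seq statistics in the paper's supplement were not used here. Neither depth nor a counting error is therefore given. Summed over all genes, FPKM differed between the groups, lying between 582896 and 617044 in the 93-11 normal libraries and between 794246 and 810922 in 93-11 HS. For Nip the order was the other way round, with 785851 to 798491 in normal and 552167 to 561203 in HS libraries.

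Expression in 93-11 and silence in Nip seldom met in one gene. The members were 0.611% of the 8997 shared genes at 5 FPKM or more in both 93-11 groups and 1.52% of the 3623 shared genes below 0.5 in both Nip groups. With the cultivars exchanged, the same thresholds gave 109 genes, silent in 93-11 and expressed in Nip. A further 692 LOC_Os genes reached 5 FPKM in both 93-11 groups but had no entry for Nip. These were not counted as silent, because the files list no gene that is at 0 in all 6 libraries of a cultivar, and a missing entry can also mean that a name was not carried by that genome's annotation.

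**Figure D1:**
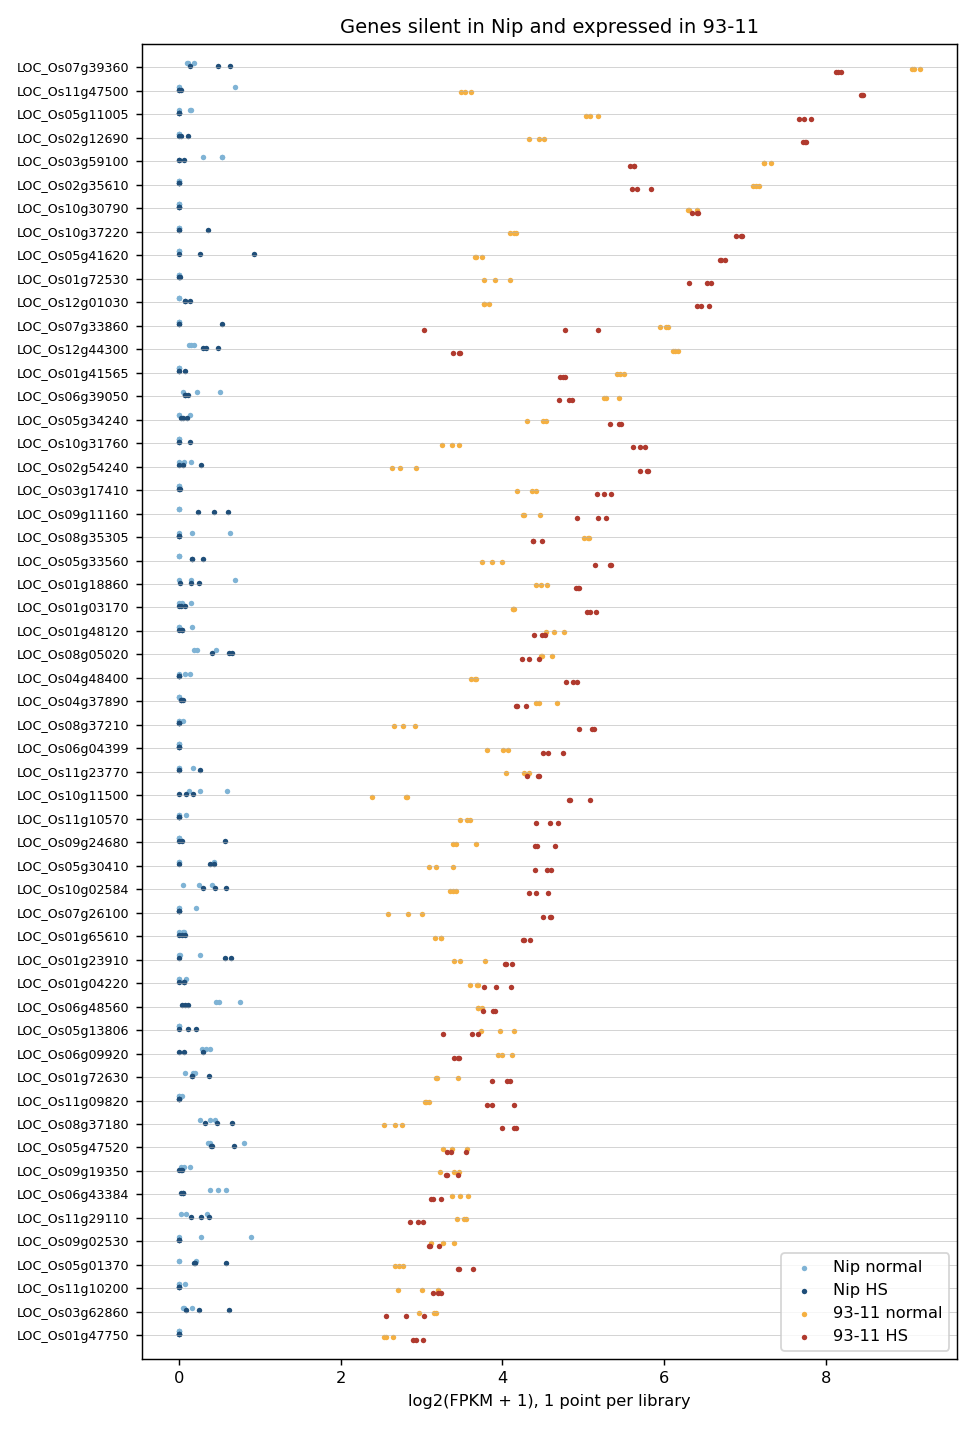
Expression of the 55 members in each of the 12 libraries, on a log2(FPKM + 1) axis with 1 point per library, ordered by the mean over the 6 libraries of 93-11. All Nip points lie below 1 on this axis and all 93-11 points above 2, a gap that follows from the rule, while the distance between the normal and HS points of 93-11 differs from gene to gene.

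The members covered a wide range of expression in 93-11. Their group means ran from 5.005 to 551.4 FPKM in 93-11 normal (median 12.2) and from 6.05 to 349.2 FPKM in 93-11 HS (median 22.7). Shared genes that reached 5 FPKM in both 93-11 groups, whatever their level in Nip, had medians of 18.7 and 23.2 FPKM. Averaged over the 6 libraries of 93-11, 46 members were at 10 FPKM or more, 26 at 20 or more, 11 at 50 or more and 5 at 100 or more. All 6 libraries of 93-11 were at 5 FPKM or more in 50 members, and single values lay between 4.24 and 574.6 FPKM. The 3 replicates lay close together, with a median coefficient of variation of 6.72% in normal and 5.50% in HS libraries, against 5.12% and 5.30% over all shared genes at that floor.

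LOC_Os07g39360, on chromosome 7, was the most abundant member by its mean over the 6 libraries of 93-11. Its FPKM was 543.8, 535.8 and 574.6 in the 93-11 normal libraries and 278.3, 290.5 and 283.5 in the 93-11 HS libraries. In Nip the values were 0.0744, 0.0800 and 0.137 in normal and 0.403, 0.106 and 0.5501 in HS libraries. Every 93-11 library was thus far above every Nip library, and within 93-11 the normal libraries lay above the HS libraries without overlap. This gene alone held 31.4% of the summed member FPKM of 93-11 normal.

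LOC_Os03g59100 and LOC_Os02g35610 were the next most abundant in 93-11 normal. LOC_Os03g59100 had 149.7, 149.6 and 158.9 FPKM in 93-11 normal and 48.6, 48.5 and 46.6 FPKM in 93-11 HS, and its highest Nip library stood at 0.449 FPKM. LOC_Os02g35610 had 143.1, 136.7 and 139.6 FPKM in 93-11 normal and 49.8, 47.8 and 56.1 FPKM in 93-11 HS. Both were lower in every HS library than in any normal library of 93-11. In Nip, no library of LOC_Os02g35610 exceeded 0.000701 FPKM.

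LOC_Os10g30790 stood out among the abundant members by a level that, as deposited, hardly differed between the treatments. It had 78.4, 77.6 and 84.0 FPKM in 93-11 normal and 80.6, 84.5 and 83.8 FPKM in 93-11 HS, and the groups overlapped. Its Nip values were at most 0.000608 FPKM in normal and 6.26e-05 FPKM in HS libraries. With limma on log2(FPKM + 1), its log2 fold change upon HS was 0.05 (standard error 0.046, adjusted p = 0.3046). That flat level rests on the scaling. With each library rescaled to the same FPKM sum the log2 fold change was -0.375 (limma adjusted p = 2.031e-05). After quantile normalization it was -0.205 (limma adjusted p = 0.0007289).

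Silence in Nip was not the same from gene to gene. The median member had a group mean of 0.046 FPKM in Nip normal and 0.042 FPKM in Nip HS. In 39 members all 6 Nip libraries were below 0.5 FPKM, and in 15 members all were below 0.1. The other 16 members had at least 1 library at 0.5 or more, which made 18 of the 330 Nip values. Of the 3623 shared genes silent in Nip by the same ceiling, 3018 were below 0.5 in all 6 Nip libraries and 859 below 0.1. The remaining 605 had at least 1 library at 0.5 or more. The highest Nip value of a member was 0.910 FPKM, for LOC_Os05g41620 in Nip HS replicate 3, where the other HS replicates had 0.199 and 2.67e-06 FPKM.

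Exact zeros were common. No member could be at 0 throughout Nip, because every gene with a Nip entry was above 0 in some Nip library. All 3 libraries of Nip normal were at 0 in 11 members, and all 3 libraries of Nip HS in 8. Among the 3623 shared genes silent in Nip, these counts were 634 and 495. No Nip library was at 0 in 23 members, which was not counted for those 3623 genes. Exactly 1 of the 6 Nip libraries was above 0 in 10 members (18.2%), close to the 17.6% among the 3623 shared genes silent in Nip by the same ceiling.

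A group of members carried Nip values that were above 0 and yet smaller than 0.001 FPKM. There were 11 of these, 20% of the 55, against 152 of the 3623 shared genes silent in Nip (4.20%). In 4 members (7.27%) no Nip library reached 0.001 FPKM, against 29 (0.80%) of the silent genes. The smallest, 2.35e-139 FPKM for LOC_Os01g47750 in Nip normal replicate 1, cannot come from a whole number of fragments. Such values are therefore estimates, and how they arose was not tested.

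The 4 members that never reached 0.001 FPKM in Nip were LOC_Os02g35610, LOC_Os10g30790, LOC_Os06g04399 and LOC_Os01g47750. LOC_Os06g04399 was listed at 0 in 3 Nip libraries and at no more than 1.79e-13 FPKM in the others. In 93-11 the same gene had 15.8, 15.0 and 13.0 FPKM in normal and 21.6, 25.8 and 22.6 FPKM in HS libraries, with no overlap. LOC_Os01g47750 reached 8.59e-08 FPKM at most in Nip and lay near the floor in 93-11, with 4.82, 5.29 and 4.90 FPKM in normal and 7.11, 6.46 and 6.62 FPKM in HS libraries.

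The thresholds cut through a continuous range. Just inside the floor in 93-11 were LOC_Os01g47750 at 5.005 FPKM and LOC_Os08g37180 at 5.31 FPKM in 93-11 normal. Just outside it were LOC_Os03g38150 at 4.997 FPKM and LOC_Os09g25470 at 4.83 FPKM. Just inside the ceiling in Nip were LOC_Os06g48560 at 0.497 FPKM in Nip normal and LOC_Os08g05020 at 0.486 FPKM in Nip HS. Just outside it were LOC_Os08g40440 at 0.509 FPKM in Nip HS and LOC_Os01g20930 at 0.573 FPKM in Nip normal.

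Within 93-11, HS against normal asks whether the genes counted as silent in Nip respond to the treatment. The rule entered this comparison only through the floor, which left out genes that fell below 5 FPKM upon HS or rose from below it. The 6 libraries of 93-11 were fitted with limma on log2(FPKM + 1), over the 20340 genes with at least 1 FPKM in 3 or more libraries. A call needed a Benjamini-Hochberg adjusted p under 0.01, taken over all genes tested, and a change of 1 or more on the log2 scale. All 55 members passed the filter on low values. Fold changes fitted on this scale understate the change of low genes, so ratios of mean FPKM are given beside them.

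By these thresholds 19 members (34.5%) were upregulated upon HS, 4 (7.27%) were downregulated and 32 were not called. Over all genes tested 22.7% were upregulated and 27.5% downregulated. Over the 8996 tested shared genes at 5 FPKM or more in both 93-11 groups, which carry the same floor, 26.4% were upregulated and 15.1% downregulated. With each library rescaled to the same FPKM sum, the members split into 14 upregulated and 8 downregulated, and those 8996 genes into 16.6% and 22.6%. That rescaling moved the median log2 fold change of all genes from 0.03 to -0.38, so the absolute direction of small changes rests on the scaling.

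The share of upregulated members differed with their level in 93-11 normal, as it did for other genes at the floor. Of the 45 members at 25 FPKM or less in 93-11 normal, 18 (40.0%) were upregulated and 0 were downregulated. Shared genes at the floor with 25 FPKM or less were upregulated in 31.3% of cases and downregulated in 4.17%. Both sets had to stay at 5 FPKM or more in HS, so genes near 5 FPKM in normal could not fall enough for a call. The few falls in this range, and their contrast with the range above 25 FPKM, therefore follow in part from the rule. Above 25 FPKM stood 10 members, of which 1 was upregulated and 4 were downregulated. Shared genes at the floor above 25 FPKM were upregulated in 18.7% of cases and downregulated in 32.3%. The median log2 fold change was 0.87 in the 45 lower members, against 0.55 in the genes of that level, and -0.83 in the 10 higher members, against -0.24 in the genes of that level.

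Over all 55 members the median log2 fold change upon HS was 0.64, against 0.34 over the 8996 genes at the floor and 0.03 over all genes tested. Member fold changes ran from -2.70 to 4.90 on the log2 scale, and 37 of the 55 were above 0. All 3 HS libraries lay above all 3 normal libraries in 33 members and below them in 15, and the groups overlapped in 7. Among all genes tested, 44.5% lay above and 43.2% below without overlap, and among the genes at the floor 55.8% and 32.6%. Of the 45 members at 25 FPKM or less in 93-11 normal, 32 lay above and 7 below without overlap, and among the genes of that level 65.7% and 19.9%. Of the 10 members above 25 FPKM, 1 lay above and 8 below, and among the genes of that level 40.3% and 52.4%. Over all 55, the shares of members without overlap were thus near those of the genes at the floor.

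**Figure D2:**
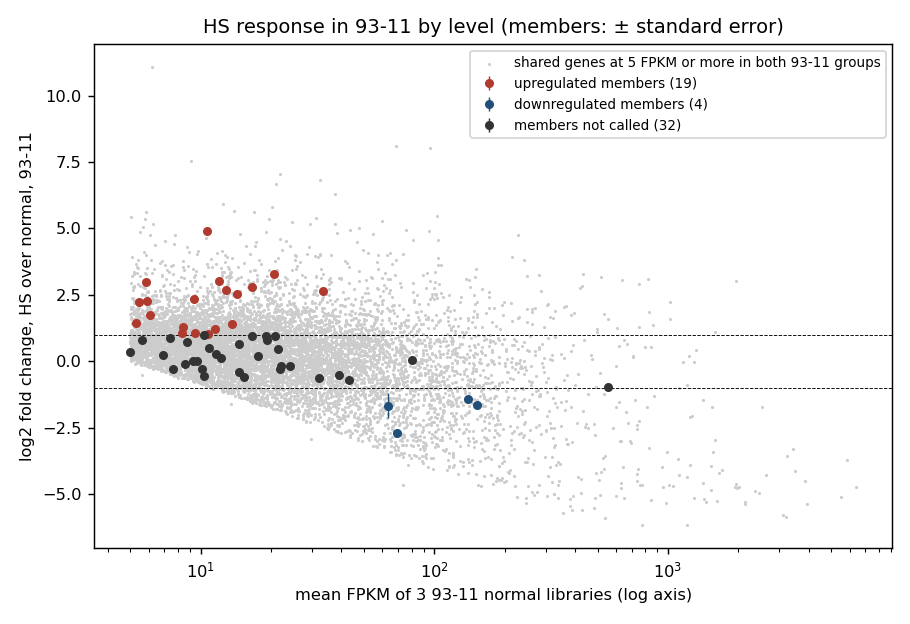
Log2 fold change upon HS in 93-11, fitted on log2(FPKM + 1), against the mean FPKM of the 3 normal libraries on a log axis. Members are large points with ± standard error (mostly hidden by the point), other shared genes at 5 FPKM or more in both 93-11 groups are small grey points, and dashed lines mark 1 and -1. The empty lower left corner is the floor of the rule. Of the 19 upregulated members 18 lie at 25 FPKM or less in normal libraries, and the 4 downregulated ones lie above it.

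LOC_Os11g47500, on chromosome 11, was the member with the largest rise upon HS. It had 11.2, 10.2 and 10.6 FPKM in 93-11 normal and 348.8, 352.5 and 346.2 FPKM in 93-11 HS. Its mean rose 32.6-fold, from 10.7 ± 0.495 to 349.2 ± 3.20 FPKM (SD, n = 3 each; log2 fold change 4.90, standard error 0.045, limma adjusted p = 2.264e-11). This made it the member with the highest level in 93-11 HS, while in Nip it did not exceed 0.621 FPKM in any library. The Nip value of 0.621 FPKM came from normal replicate 2, and the remaining Nip libraries were at 0.0162 FPKM or less.

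The next listed shared identifier, LOC_Os11g47510, also had high values upon HS in 93-11. Its FPKM was 0.160, 0.495 and 0.0659 in 93-11 normal and 139.3, 141.5 and 135.7 in 93-11 HS. In Nip it had 0.699, 0.335 and 0.148 FPKM in normal and 1.17, 0.809 and 0.783 FPKM in HS libraries. It was no member, because its level in 93-11 normal was below the floor. High values of this gene were confined to the 3 HS libraries of 93-11 among the 12 libraries.

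LOC_Os02g12690, on chromosome 2, rose 10.3-fold. It had 19.1, 21.8 and 21.0 FPKM in 93-11 normal and 209.6, 214.8 and 212.6 FPKM in 93-11 HS (log2 fold change 3.30, standard error 0.053, limma adjusted p = 2.048e-10). All 3 libraries of Nip normal were at 0 and Nip HS did not exceed 0.0854 FPKM. LOC_Os05g11005 reached nearly the same level in 93-11 HS from a higher start. It rose 6.38-fold, from 31.8, 32.9 and 35.2 FPKM to 223.9, 210.9 and 202.6 FPKM (log2 fold change 2.64), and was the 1 upregulated member above 25 FPKM in normal libraries.

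LOC_Os05g41620 rose 8.70-fold, from 11.7, 11.7 and 12.5 FPKM in 93-11 normal to 106.9, 103.0 and 102.4 FPKM in 93-11 HS (log2 fold change 3.02). It was also the member with the highest single Nip value, and that value came from an HS library. LOC_Os02g54240 rose 9.12-fold, from 5.23, 6.66 and 5.65 FPKM to 54.8, 54.4 and 50.9 FPKM (log2 fold change 2.99), with Nip values of 0.209 FPKM or less. Its next listed shared neighbour, LOC_Os02g54254, was higher upon HS in both cultivars to a like degree, going from means of 21.4 to 186.9 FPKM in 93-11 and from 21.3 to 190.2 FPKM in Nip. High expression upon HS at that place in the order of identifiers was therefore shared by the cultivars for the neighbour but not for the member.

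LOC_Os10g37220, LOC_Os12g01030 and LOC_Os01g72530 completed the 8 largest rises. LOC_Os10g37220 went from 16.1, 16.7 and 16.9 FPKM in 93-11 normal to 122.8, 117.9 and 124.0 FPKM in 93-11 HS, a 7.33-fold rise, and was above 0 in only 1 Nip library, at 0.285 FPKM. LOC_Os12g01030 went from 12.6, 13.3 and 12.6 FPKM to 83.5, 93.0 and 86.8 FPKM, a 6.82-fold rise, and was at 0 in all 3 Nip normal libraries. LOC_Os01g72530 went from 14.0, 16.2 and 12.7 FPKM to 91.8, 94.4 and 78.3 FPKM, a 6.16-fold rise. In each of these the HS libraries stood clear of the normal libraries. The other 11 upregulated members rose between 2.12- and 5.49-fold, and 11 of the 19 rose at least 5-fold.

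Smaller rises were called in members that were low in 93-11 normal. LOC_Os10g31760 went from a mean of 9.35 ± 0.761 to 50.9 ± 2.52 FPKM (SD, n = 3 each), a 5.44-fold rise, and LOC_Os10g11500 from 5.45 ± 1.05 to 29.2 ± 3.18 FPKM, a 5.36-fold rise. LOC_Os05g33560 and LOC_Os05g30410, both on chromosome 5, rose 2.76-fold and 2.62-fold. The smallest called rises were those of LOC_Os11g10570 (2.12-fold), LOC_Os10g02584 (2.18-fold) and LOC_Os01g65610 (2.23-fold).

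Downregulation was seen in 4 members. LOC_Os12g44300, on chromosome 12, fell 7.04-fold, from 67.9, 69.5 and 71.2 FPKM in 93-11 normal to 10.1, 9.46 and 10.1 FPKM in 93-11 HS (log2 fold change -2.70, standard error 0.051, limma adjusted p = 4.353e-10). LOC_Os03g59100 fell 3.19-fold (log2 fold change -1.65) and LOC_Os02g35610 fell 2.73-fold (log2 fold change -1.43), with the values given above. In these 3 genes the replicates of each group lay close together.

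LOC_Os07g33860 was called with little margin, and its HS replicates were far apart. It had 60.7, 65.3 and 64.1 FPKM in 93-11 normal but 35.3, 26.3 and 7.17 FPKM in 93-11 HS (log2 fold change -1.68, standard error 0.47, limma adjusted p = 0.008579). All HS libraries were below all normal libraries, yet the size of the fall hung on HS replicate 3, without which the log2 fold change was -1.03. The call was lost when any 1 normal replicate was left out, with adjusted p between 0.02136 and 0.02633.

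The 32 members without a call had log2 fold changes from -0.95 to 0.997, and in 20 of them the adjusted p was under 0.01 with too small a change. LOC_Os07g39360, the most abundant member, went from 551.4 ± 20.5 to 284.1 ± 6.15 FPKM (SD, n = 3 each), a log2 fold change of -0.95 (limma adjusted p = 5.952e-08) that missed the threshold on size. It was called as downregulated after rescaling to equal sums, where the log2 fold change was -1.39, and after quantile normalization, where it was -1.58. LOC_Os09g24680, at the other end, went from a mean of 10.3 to 21.6 FPKM (log2 fold change 0.997, just below the threshold). Means of LOC_Os09g19350 were 9.32 FPKM in 93-11 normal and 9.27 FPKM in 93-11 HS, and those of LOC_Os05g47520 were 9.61 and 9.64 FPKM.

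Several members came close to a call from below. LOC_Os05g34240 went from 20.9 to 41.6 FPKM, LOC_Os01g03170 from 16.6 to 33.2 FPKM and LOC_Os03g17410 from 19.04 to 37.3 FPKM, each with a log2 fold change between 0.94 and 0.96. In all of them the HS libraries lay above the normal libraries, and the ratios of mean FPKM were 1.99, 2.01 and 1.96. On the fitted scale, which adds 1 to each value, their changes were below the threshold, and so was that of LOC_Os09g24680 with a ratio of 2.09. Among the members with lower values upon HS, LOC_Os01g41565 went from 43.05 to 25.8 FPKM (log2 fold change -0.72), LOC_Os08g35305 from 32.2 to 20.4 FPKM (-0.64) and LOC_Os06g39050 from 39.2 to 26.8 FPKM (-0.53). These 3 were above 25 FPKM in 93-11 normal, while LOC_Os06g09920 (15.3 to 9.83 FPKM, -0.59) and LOC_Os11g29110 (10.4 to 6.72 FPKM, -0.56) were below it. The 7 members whose groups overlapped were LOC_Os10g30790, LOC_Os11g23770, LOC_Os05g47520, LOC_Os09g19350, LOC_Os09g02530, LOC_Os11g10200 and LOC_Os03g62860, and apart from LOC_Os10g30790 their mean stayed below 25 FPKM in both groups of 93-11.

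Summed over the 55 members, FPKM was 1726, 1731 and 1803 in the 93-11 normal libraries and 2583, 2604 and 2516 in the 93-11 HS libraries. The higher sums under HS were not carried by LOC_Os07g39360, which was lower upon HS. Without it the sums were 1183, 1196 and 1228 in normal and 2305, 2314 and 2232 in HS libraries. The rise was uneven over the members, 15 of which were lower upon HS without overlap. LOC_Os11g47500 alone went from a mean of 10.7 to 349.2 FPKM. The FPKM sum over all genes was also higher in the HS than in the normal libraries of 93-11, with medians of 807651 and 589609. The member sums were not taken on rescaled libraries, so the part of this total in them was not tested. Rescaling to equal sums lowered the median log2 fold change of the members from 0.64 to 0.235.

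Members lay on all 12 chromosomes, as read from their identifiers. Chromosome 1 held the most, 10 members, followed by chromosome 5 with 8 and chromosome 11 with 6. Relative to the shared genes at 5 FPKM or more in both 93-11 groups, chromosome 11 came first, with 17.3 members per 1000 such genes, followed by chromosome 10 with 11.5 and chromosome 5 with 10.2. Chromosomes 3, 2 and 4 had the fewest, with 2.19, 2.65 and 2.72 per 1000. Counts of 2 to 10 members per chromosome leave these ratios imprecise, and they were not tested.

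**Figure D3:**
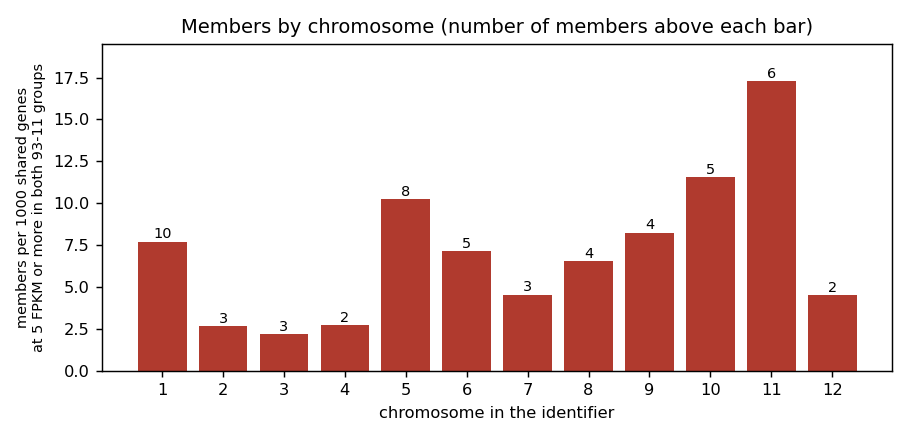
Members per 1000 shared genes at 5 FPKM or more in both 93-11 groups, by the chromosome in the identifier, with the number of members above each bar. Chromosome 11 has the tallest bar (17.3 per 1000, 6 members), and chromosomes 2, 3 and 4 have the lowest.

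Most members stood alone in the order of identifiers. No 3 or more members followed each other with at most 2 shared identifiers between them. The 1 adjacent pair was LOC_Os08g37180 and LOC_Os08g37210, with no shared identifier between them. LOC_Os08g37180 had 5.39, 4.8002 and 5.75 FPKM in 93-11 normal and 16.7, 17.0 and 15.0 FPKM in 93-11 HS, a 3.05-fold rise. LOC_Os08g37210 had 5.33, 6.59 and 5.84 FPKM in normal and 33.5, 34.2 and 29.9 FPKM in HS libraries, a 5.49-fold rise. Both genes of the pair were upregulated, each without overlap. In Nip, LOC_Os08g37180 was above 0 in all 6 libraries, at up to 0.575 FPKM, whereas LOC_Os08g37210 was above 0 in 1.

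Farther apart, LOC_Os01g72530 and LOC_Os01g72630 had 5 shared identifiers between them. LOC_Os01g72610, which precedes LOC_Os01g72630 among the shared identifiers, was also higher in 93-11 than in Nip, with means of 54.9 against 5.93 FPKM in normal and 137.7 against 14.2 FPKM in HS libraries. Its Nip normal values were spread from 0.00666 to 14.1 FPKM, and without replicate 1 their mean was 1.83 FPKM. LOC_Os01g72570, between them, was at a like level in all 4 groups, with means of 26.8 and 23.5 FPKM in Nip normal and HS and 27.5 and 26.6 FPKM in 93-11 normal and HS. The difference between the cultivars was therefore not shared by all genes of that stretch.

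The genes next to the members differed between the cultivars about as much as shared genes in general. Taking the nearest shared identifier on each side gave 108 neighbours that were not members themselves. Of these, 67.6% were at 1 FPKM or more in Nip normal, against 75.2% of all shared genes. Their median log2(FPKM + 1) difference, 93-11 minus Nip, was -0.25 in normal and -0.15 in HS libraries, against -0.20 and -0.15 over all shared genes. Differences of at least 1 in size were found in 20.4% of neighbours in normal and 38.0% in HS libraries, against 16.9% and 36.0% of all shared genes. The members, by the rule, had medians of 3.69 and 4.44 on this scale.

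**Figure D4:**
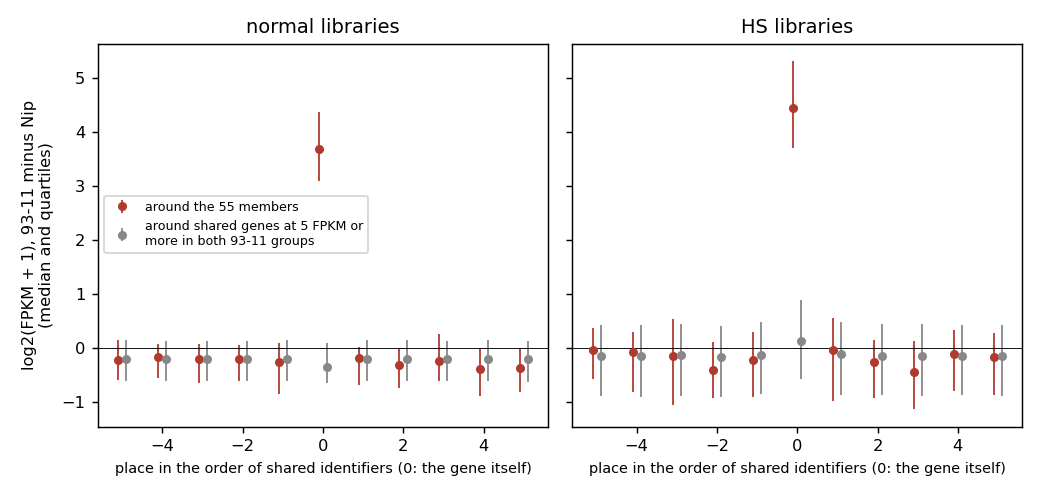
Difference in log2(FPKM + 1), 93-11 minus Nip, at each place in the order of shared identifiers around the 55 members (red) and around shared genes at 5 FPKM or more in both 93-11 groups (grey), with medians as points and quartiles as bars. The red point at place 0 is set by the rule (3.69 in normal, 4.44 in HS libraries), and the red points at the other places lie near the grey ones.

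A closer view of the neighbours, taken over identifiers listed for either cultivar, showed the reverse pattern beside some members. The reverse pattern means at least 5 FPKM in both Nip groups and, in 93-11, either below 0.5 FPKM in both groups or no entry. Within 3 identifiers on either side, 15 members (27.3%) had such a gene, against 12.8% of the 8997 shared genes at the floor. For the identifier directly next to the gene these shares were 10 members (18.2%) and 4.29%. None of the 10 directly adjacent partners had an entry for 93-11. Beside genes at the floor, the partner likewise had no entry in 345 of 389 adjacent pairs. This comparison was chosen after the data were seen and was not tested.

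Levels within the adjacent pairs were often close in normal libraries. The mean FPKM of the member in 93-11 normal and that of its partner in Nip normal were within 2-fold in 9 of 10 pairs (90.0%), against 49.4% of 389 such pairs beside genes at the floor. Within 3 identifiers the gap was smaller, with 10 of 15 pairs (66.7%) against 44.8%. Spearman's correlation between these levels was 0.53 over the 10 adjacent pairs and 0.16 over the 389, and within 3 identifiers it was 0.28 over the 15 pairs and 0.14 beside genes at the floor. In HS libraries fewer of the adjacent pairs were within 2-fold, namely those of LOC_Os05g01370, LOC_Os06g09920, LOC_Os06g39050 and LOC_Os08g05020. The other adjacent pairs lay more than 2-fold apart, and no HS share was taken beside genes at the floor. LOC_Os05g01370 had a mean of 10.5 FPKM in 93-11 HS, and its adjacent partner had 11.5 FPKM in Nip HS. For LOC_Os12g44300 and its partner these means were 9.88 and 44.6 FPKM. Which locus of each genome the names of a pair stand for was not tested.

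LOC_Os10g37220 and LOC_Os10g37210 formed such a pair. The member had a mean of 16.6 ± 0.415 FPKM in 93-11 normal, and LOC_Os10g37210 had 16.3, 15.6 and 16.1 FPKM in Nip normal. Upon HS the member rose to 121.6 FPKM in 93-11, and LOC_Os10g37210 had 35.3, 34.8 and 34.1 FPKM in Nip HS. Both were higher upon HS without overlap, 7.33-fold in the member and 2.17-fold in the partner.

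LOC_Os12g44300, the member with the largest fall, lay next to LOC_Os12g44310. The partner had 89.2, 87.8 and 87.9 FPKM in Nip normal and 44.6, 44.3 and 44.9 FPKM in Nip HS, and no entry for 93-11. Its level in Nip normal was near the 69.5 FPKM of the member in 93-11 normal, and both genes were lower upon HS in every library.

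LOC_Os07g39360, the most abundant member, lay next to LOC_Os07g39350, which in Nip normal had a mean of 357.4 FPKM and in Nip HS 233.4 FPKM. In 93-11, LOC_Os07g39350 had 0.0527, 0 and 0.0625 FPKM in normal and 0.609, 0.689 and 0.362 FPKM in HS libraries. Its mean of 0.553 FPKM in 93-11 HS kept it out of the 15 above. With a ceiling of 1 FPKM in place of 0.5 there were 16 pairs, of which 11 were directly adjacent and 9 had the partner at the next lower identifier. Beside genes at the floor 402 of 1271 such pairs were directly adjacent, and the side of the partner was not counted there.

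Among those 16 pairs, 10 had both genes separated between HS and normal, the member in 93-11 and the partner in Nip, against 72.6% of 1271 pairs beside genes at the floor. In 8 of the 10 the direction was the same and in 2 it was opposite, against 54.3% in the same direction beside genes at the floor. Of the 16 partners 14 had no entry for 93-11, so the level of those 14 there is unknown. Beside genes at the floor, the partner had no entry in 1045 of the 1271 pairs. LOC_Os06g09920 and its partner LOC_Os06g09910 were both lower upon HS, the member going from a mean of 15.3 to 9.83 FPKM in 93-11 and the partner from 24.6 to 15.5 FPKM in Nip. LOC_Os04g48400 and LOC_Os04g48390 went apart. The member rose from 11.8, 11.2 and 11.7 FPKM in 93-11 normal to 26.5, 28.4 and 29.2 FPKM in 93-11 HS, while the partner went from 11.8, 13.7 and 13.3 FPKM in Nip normal to 6.66, 7.93 and 6.89 FPKM in Nip HS.

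**Figure D5:**
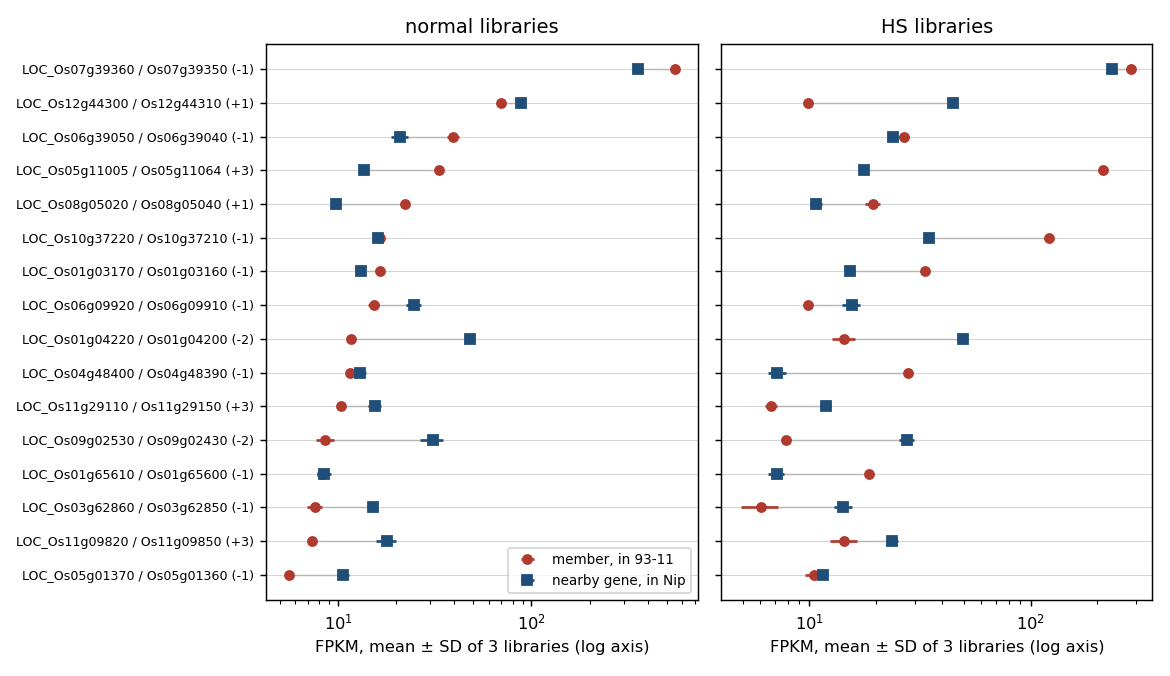
Mean FPKM ± SD (n = 3, log axis) of 16 members in 93-11 (red circles) and of a nearby gene with the reverse pattern in Nip (blue squares), in normal and HS libraries. The number in brackets is the place of the nearby gene relative to the member in the order of identifiers. In normal libraries 11 of the 16 pairs lie within 2-fold of each other, against 44.5% of such pairs beside genes at the floor. Fewer of the 16 pairs lie within 2-fold in HS libraries.

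Single neighbours of other members showed large differences of their own. LOC_Os07g26000, beside LOC_Os07g26100, had means of 36.8 FPKM in Nip normal and 49.6 FPKM in Nip HS, against 1.45 and 2.44 FPKM in 93-11. On the other side of that member, LOC_Os07g26110 was higher in 93-11. Its means were 21.8 FPKM in 93-11 normal and 552.3 FPKM in 93-11 HS, against 4.73 and 37.3 FPKM in Nip. LOC_Os07g26100 itself had 6.12, 4.99 and 7.05 FPKM in 93-11 normal and 23.0, 21.7 and 23.4 FPKM in 93-11 HS, a 3.75-fold rise, and was above 0 in 1 Nip library. LOC_Os11g10590, beside LOC_Os11g10570, had a mean of 626.7 FPKM in Nip normal but 0.783 FPKM in Nip HS, with 4.86 and 3.06 FPKM in 93-11.

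The form of the identifiers was also compared. LOC_Os numbers were first given in steps of 10, and identifiers with another last digit came with later gene models. Of the 55 members 7 (12.7%) did not end in 0, against 6.15% of the shared genes at the floor and 22.9% of the 109 genes with the exchanged rule. Neither difference was tested.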

How the data were processed

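RNA-seq libraries of 4 groups of 3 were compared. The authors deposited 1 FPKM value per gene and library, from reads aligned to each cultivar's own genome. The paper names STAR and featureCounts 1.6.3, whereas the submitters' processing notes list HISAT2 2.0.4, StringTie 1.3.4d and DESeq2. The tool behind the FPKM values and the genome builds are not given in the sources used here. Values were used as deposited, with no rescaling. Tests used limma (version 3.58.1, run in R 4.3.3), with the prior variance trended on mean level, applied to log2 values computed here from the deposited FPKM with a pseudocount of 1. Tables and figures used Python 3.11.15. Replicate numbers come from the labels.

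The members and lists were chosen with earlier results of these data known. Genes were named by rule: the 10 members highest in 93-11, the 8 largest called rises and falls (only 4 fell), runs of members, and genes at the thresholds. Other genes, including neighbours, pairs and members with trace values, were chosen after their values were seen. The planned classes by function, the marker check and the protein comparison were not run. Hi-C and ATAC-seq data were not analysed here.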

Additional observations from a re-analysis of the deposited data

How the results depend on the processing

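The number of members depended on the thresholds. It was 28 with a ceiling of 0.1 and 76 with a ceiling of 1 in Nip. With a floor of 2 in 93-11 the number was 107, and with a floor of 10 it was 33. The number was 37 when every library had to meet the thresholds, and 747 with genes not listed for Nip counted as 0. It was 54 to 58 without 1 replicate number. Rescaling to equal sums gave 58 members, 44 of them among the 55. With the members kept, the same rescaling gave 8 downregulated members and a median log2 fold change of 0.235. The other alternatives left 17 to 21 members upregulated, except limma's treat test with a minimum log2 fold change of 1 (14) and the equal sums (14), and 3 to 5 downregulated. Leaving out each 93-11 library in turn gave 18 to 21 upregulated, 3 to 4 downregulated and a median of 0.57 to 0.69. LOC_Os07g33860 missed the threshold on p in 6 alternatives, with adjusted p of 0.01309 with a pseudocount of 0.1, 0.0254 with no filter on low values and 0.207 in treat.

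The shared replicate numbers did not pair the 93-11 libraries, since the same-number correlations were -0.016, 0.053 and -0.060. With a replicate block, 19 members were upregulated and 4 downregulated, with a median log2 fold change of 0.64, and no member's call changed. The reverse pattern near members was counted under 3 further settings chosen after seeing the data, with 10 to 16 members. The files hold no counts, so precision rests on 3 libraries per group, and no group was large enough for a check of outlying samples.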
